A study of Mus musculus with 5 samples.

Results

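The peaks described here are those of 4 histone marks around Cdx2, Gata3, Elf5 and Tfap2c, regulators of the trophoblast lineage, in the mouse epiblast stem cell line EpiSC9. Members were all peaks that shared at least 1 bp with 1 of 4 windows of mm9, which are chromosome 5 at 148100000 to 148135000 for Cdx2 and, on chromosome 2, 9760000 to 9820000 for Gata3, 103235000 to 103310000 for Elf5 and 172350000 to 172410000 for Tfap2c. The windows held 81 of the 156288 peaks in all, with 28 of 16975 for H3K27me3, 21 of 28941 for H3K4me3, 29 of 76772 for H3K4me1 and 3 of 33600 for H3K27ac. Chromatin immunoprecipitation followed by sequencing gave 1 library per mark, each from 5000000 crosslinked cells kept in 10 ng/ml FGF2 over a feeder layer of irradiated mouse embryonic fibroblasts, and an input library that was not analysed here. All libraries came from the same untreated line, so no condition is compared with another, there are no replicates, and no p is given. The depth of each library is unknown, and the part of the feeder cells in the peaks was not tested. Gene positions on mm9 were not used here, so the windows carry the gene names of the rule that set them, and no peak is placed in an exon, an intron or at a start site.

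Epiblast stem cells represent the primed state of pluripotency, after the trophoblast, which forms the placenta, has separated from the embryo proper. Cdx2 is a homeodomain factor and Gata3 a zinc finger factor of the trophectoderm, the outer layer of the blastocyst. Elf5 is an ETS factor that maintains trophoblast stem cells, and its promoter is known to carry DNA methylation in embryonic stem cells and not in trophoblast stem cells. Tfap2c encodes AP-2 gamma, which acts in the trophoblast and also in germ cells. H3K27me3 is placed by Polycomb repressive complexes at silent genes, and its coincidence with H3K4me3, a mark of promoters, is called bivalent. H3K27ac marks active promoters and enhancers, and H3K4me1 lies at enhancers and beside promoters.

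The 4 windows fell into 3 patterns. Around Cdx2 and Gata3, broad H3K27me3 lay over many H3K4me3 and H3K4me1 peaks and nearly no H3K27ac was listed. Around Tfap2c, a wide H3K4me3 stretch, listed as a single peak, was flanked and partly overlain by narrower H3K27me3, and H3K27ac lay more than 20 kb away. Around Elf5, 2 weak peaks were listed and neither was H3K27me3 or H3K27ac.

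Since CpG content is known to go with both H3K4me3 and Polycomb marks at mammalian promoters, the bases before the starts of these genes are shown first, to set the sparsely marked Elf5 beside the others. RefSeq entries were matched for 3 of the 4 genes, all but Tfap2c. Each line gives the 250 bases before a start, 5′ to 3′ on the gene's strand, with CpG dinucleotides in capitals. Positions are those of GRCm38.p6, the build of this RefSeq table, and cannot be set against the mm9 positions of the peaks.
Cdx2, chr5:147307250-147307499, minus strand: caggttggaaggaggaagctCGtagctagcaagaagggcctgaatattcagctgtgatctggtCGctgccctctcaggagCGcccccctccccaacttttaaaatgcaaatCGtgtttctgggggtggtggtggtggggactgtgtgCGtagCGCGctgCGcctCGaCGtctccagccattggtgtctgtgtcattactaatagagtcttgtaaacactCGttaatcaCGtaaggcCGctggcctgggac
Gata3, chr2:9878601-9878850, minus strand: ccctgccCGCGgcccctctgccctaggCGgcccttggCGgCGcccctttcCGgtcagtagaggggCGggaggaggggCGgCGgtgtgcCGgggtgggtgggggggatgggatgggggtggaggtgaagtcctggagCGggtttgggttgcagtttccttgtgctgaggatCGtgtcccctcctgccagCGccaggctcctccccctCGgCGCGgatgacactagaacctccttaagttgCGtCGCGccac
Elf5, first start, chr2:103411848-103412097, plus strand: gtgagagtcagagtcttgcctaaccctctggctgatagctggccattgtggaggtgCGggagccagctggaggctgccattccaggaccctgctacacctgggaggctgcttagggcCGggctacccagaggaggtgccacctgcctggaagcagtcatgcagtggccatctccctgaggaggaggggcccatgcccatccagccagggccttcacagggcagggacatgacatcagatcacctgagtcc
Elf5, second start, chr2:103423818-103424067, plus strand: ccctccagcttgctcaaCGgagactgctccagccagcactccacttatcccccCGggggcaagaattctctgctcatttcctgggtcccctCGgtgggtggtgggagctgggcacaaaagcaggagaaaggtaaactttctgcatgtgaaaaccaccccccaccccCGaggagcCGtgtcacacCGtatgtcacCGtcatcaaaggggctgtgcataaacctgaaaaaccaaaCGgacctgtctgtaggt

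The Gata3 stretch held 19 CpG and the Cdx2 stretch 13, against a median of 6 (interquartile range 2 to 16) over the 32851 promoters of the table. Elf5 had fewer, with 2 before its first start and 8 before its second, which lies 11.97 kb further along. Of all promoters, 19.7% held at least as many CpG as Gata3, 31.5% as Cdx2, 43% as the second Elf5 start and 81.2% as the first. The ratio of CpG found to CpG predicted from the C and G content was 0.633 for Gata3 and 0.69 for Cdx2, against 0.0814 and 0.402 for the Elf5 starts and a median of 0.373 over all promoters. GC content did not order the genes in the same way, since the first Elf5 start had 62.8% against 55.2% for Cdx2. The CpG counts thus set the first Elf5 start apart from Cdx2 and Gata3, and their part in the peaks was not tested.

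**Figure D1:**
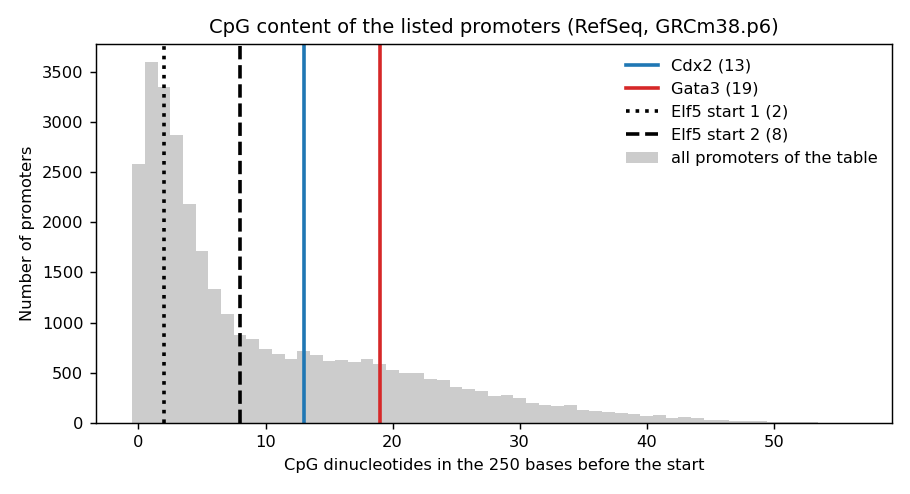
Number of RefSeq promoters (y axis) by the number of CpG dinucleotides in the 250 bases before the start (x axis), as grey bars. Vertical lines mark Cdx2 at 13, Gata3 at 19 and the Elf5 starts at 2 (dotted) and 8 (dashed), against the median of 6 over all promoters.

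H3K27me3 was the mark that most separated the windows. It covered 23.83 kb (68.1%) of the 35 kb Cdx2 window, 23.37 kb (38.9%) of the 60 kb Gata3 window, 6.99 kb (11.6%) of the 60 kb Tfap2c window and 0 kb of the 75 kb Elf5 window. Cover of that extent was uncommon. Of 16028 consecutive tiles of 35 kb that hold an H3K4me3 peak, 0.218% had at least as much H3K27me3 as the Cdx2 window, and 75.4% had none. Of 13189 such tiles of 60 kb, 0.364% had at least as much as the Gata3 window and 2.62% as much as the Tfap2c window. The Elf5 window was like most tiles in this respect, since 69.2% of 12067 such tiles of 75 kb had no H3K27me3.

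H3K4me3 and H3K4me1 also covered more than the median tile around Cdx2, Gata3 and Tfap2c and less around Elf5. H3K4me3 covered 6.67 kb of the Cdx2 window, 11.92 kb for Gata3, 6.15 kb for Tfap2c and 0.36 kb for Elf5, and the median of tiles of the same length was 1.76 kb for Cdx2, 2 kb for Gata3 and Tfap2c and 2.14 kb for Elf5. H3K4me1 covered 18 kb, 22.26 kb and 15.88 kb of the Cdx2, Gata3 and Tfap2c windows, where the tile medians were 4.3 kb for the first and 5.97 kb for the other two. The Elf5 window had 1.35 kb of H3K4me1, and 86.8% of tiles had at least that much. H3K27ac was not listed in the Cdx2 and Elf5 windows and covered 0.43 kb around Gata3 and 2.13 kb around Tfap2c, and the tile medians lay between 1.02 and 1.59 kb. Around Tfap2c its cover was thus above the median tile, and 38% of the 60 kb tiles had at least as much. Lack of H3K27ac is itself frequent, as 36.4% of the 35 kb tiles and 29.6% of the 75 kb tiles had none.

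**Figure D2:**
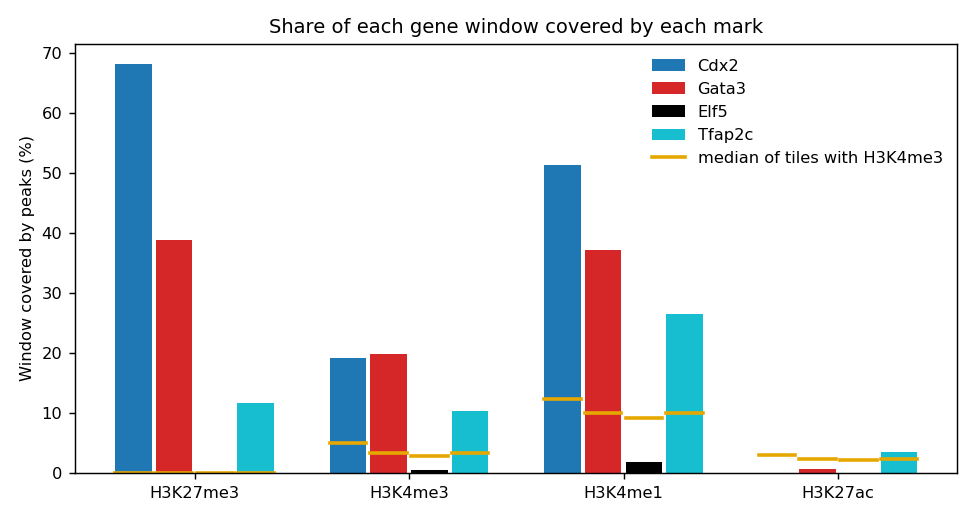
Percent of each window covered by peaks (y axis) for the 4 marks (x axis) and the 4 genes (bars), with the median over tiles of the same length that hold H3K4me3 as a yellow line. The H3K27me3 bars stand at 68.1% for Cdx2, 38.9% for Gata3 and 11.6% for Tfap2c, above a tile median of 0, and Elf5 is at that median with 0.

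Of the 21 H3K4me3 peaks in the windows, 20 overlapped H3K27me3 and not H3K27ac, which held for 15.6% of all H3K4me3 peaks. Only this class is counted as bivalent here, and peaks with both H3K27 marks are left out of it. The 20 peaks were 5 of 5 around Cdx2, 11 of 11 around Gata3 and 4 of 4 around Tfap2c. The remaining peak, around Elf5, overlapped neither, as did 35.2% of the list. The classes with H3K27ac alone (48.2% of the list) and with both H3K27 marks (1.03%) had 0 peaks in the windows. Peaks of 1 window lie beside each other on the same chromatin, so the 20 peaks stand for 3 loci and not for 20 separate cases. H3K4me1 overlapped 19 of the 21, against 83.2% of the list, and the 2 without it were the Elf5 peak and a narrow Gata3 peak of 268 bp.

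Seen from the other marks, the overlap was less complete. H3K27me3 peaks met H3K4me3 in 3 of 6 cases around Cdx2, 8 of 14 around Gata3 and 5 of 8 around Tfap2c, against 33.2% of all H3K27me3 peaks, so Polycomb marking ran past the H3K4me3 peaks in all 3 windows. H3K4me1 peaks met H3K27me3 in 8 of 9 cases around Cdx2, 9 of 11 around Gata3, 0 of 1 around Elf5 and 3 of 8 around Tfap2c, against 6.21% of the list. H3K27me3 peaks met H3K4me1 in 22 of 28 cases over the 4 windows, against 41.3% of the list. These shares were not matched for width. The H3K27me3 peaks had median widths of 1547 bp around Cdx2, 800.5 bp around Gata3 and 601.5 bp around Tfap2c, against 405 bp over the list. In bases, 92.9% of the H3K4me3 cover around Cdx2 was also under H3K27me3, with 84% around Gata3 and 57.2% around Tfap2c, against 10.4% over the whole list. H3K27me3 thus touched every H3K4me3 peak around Tfap2c, as around Cdx2 and Gata3, while a smaller share of their length was shared.

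**Figure D3:**
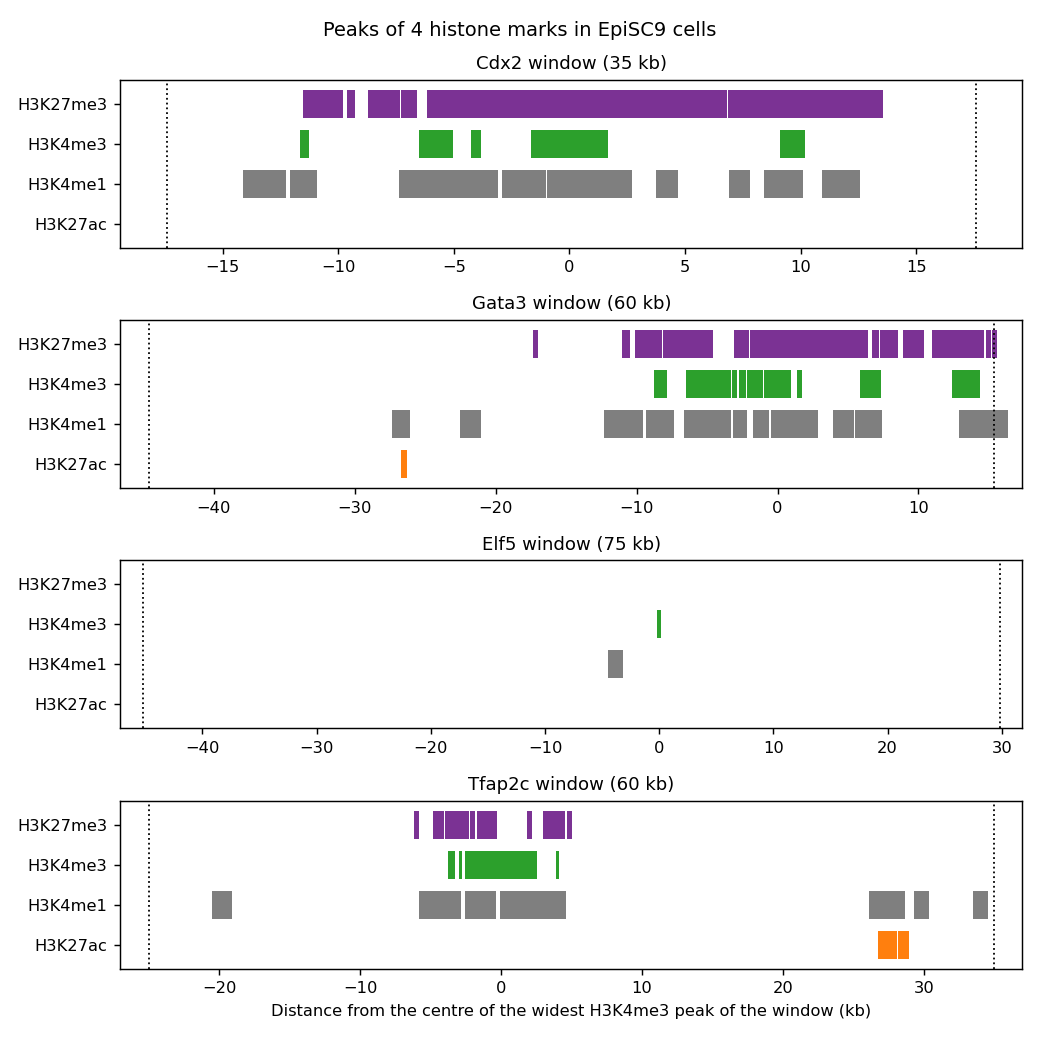
Peaks of H3K27me3, H3K4me3, H3K4me1 and H3K27ac (rows, as bars to scale) in the 4 windows (panels), by distance in kb from the centre of the widest H3K4me3 peak of the window, with dotted lines at the window ends. H3K27me3 covers 23.83 kb around Cdx2 and 23.37 kb around Gata3 and is absent around Elf5. It leaves gaps of 1.49 kb at Gata3, largely under H3K4me3, and of 2.14 kb inside the widest Tfap2c peak.

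Around Cdx2, which directs cells to the trophectoderm and later acts in the posterior body axis and the gut, a single H3K27me3 peak at 148111265 to 148124237 was 12973 bp wide with a score of 3100. Only 10 of the 16975 H3K27me3 peaks (0.0589%), itself included, were at least as wide. The score is the one the authors deposited for each peak, and no header states its scale. It is used here for ranks within a list, whose lowest score is 50, and weak and strong refer to this rank. A score of 3100 or more was reached by 25.4% of H3K4me3 peaks and 0.401% of H3K27me3 peaks. Ranks among such scores are not read as an order of strength. Next in width were the peak at 148124276 to 148130961, with 6686 bp and a score of 2344.5, and the peak at 148105903 to 148107623, with 1721 bp and a score of 440.32. With the other 3 they joined, at distances of at most 5 kb, into a domain of 25.06 kb that ranked 39 of 7561 by covered length.

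This domain held all 5 H3K4me3 peaks of the window. The widest, at 148115737 to 148119097, measured 3361 bp with a score of 1550.73. It lay wholly under H3K27me3. In its own list it was among the widest, since 1.85% of H3K4me3 peaks were at least as wide, but not among the strongest, since 40.9% scored at least as high. The others were at 148110908 to 148112364 (1457 bp, score 660.81), 148126537 to 148127601 (1065 bp, score 270.46), 148113175 to 148113597 (423 bp, score 75.85) and 148105784 to 148106152 (369 bp, score 55.63). H3K27me3 covered 75.5%, 100%, 100% and 67.8% of them in that order, so that none lay outside the Polycomb mark. Of the 535 H3K4me3 peaks at least as wide as the widest Cdx2 peak, 115 (21.5%) overlapped H3K27me3 and not H3K27ac.

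H3K4me1 around Cdx2 was led by peaks at 148110058 to 148114319 (4262 bp, score 533.26) and 148116455 to 148120137 (3683 bp, score 522.62), and 5.72% and 5.98% of the H3K4me1 list scored at least as high. The third in width, at 148114490 to 148116383, had 1894 bp and a score of 167.16. These 3 lay at and between the H3K4me3 peaks, and H3K27me3 covered 89.4% or more of each. The nearest H3K27ac peak to the widest H3K4me3 peak was 121.903 kb away, the longest such distance among the 4 windows.

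Gata3, which acts beside Cdx2 in the trophectoderm and is also known for its role in T cells, had the most peaks, 37 over all marks against 20 for Cdx2, 22 for Tfap2c and 2 for Elf5. Its widest H3K27me3 peak, at 9803130 to 9811028, measured 7899 bp and scored 3191.08. Of the 16975 H3K27me3 peaks, 4, itself included, scored at least as high. This score lies above 3100, so its rank is not read as greater strength than that of the widest Cdx2 peak. The next in width were at 9796473 to 9800045 (3573 bp, score 1285.25) and 9816027 to 9819301 (3275 bp, score 1043.29). The domain joined from 13 peaks spanned 26.59 kb, reached past the window by less than 1 kb, and ranked 44 of 7561, close to the domain at Cdx2. A further H3K27me3 peak at 9787263 to 9787624 stood alone, with 362 bp and a score of 50.79, near the lowest of the list.

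The Gata3 domain held all 11 H3K4me3 peaks of the window, with widths of 268 to 1978 bp (median 1150) and scores of 54.77 to 2345.4 (median 836.64). The widest was at 9803633 to 9805610 (1978 bp, score 1020.11) and lay wholly under H3K27me3. The next, at 9799397 to 9801293 (1897 bp), had the highest score of the 11, 2345.4, and H3K27me3 covered 34.2% of it. The third, at 9817283 to 9819004 (1722 bp, score 836.64), again lay wholly under H3K27me3. The strongest H3K4me3 peak was thus the one with the smallest share under the Polycomb mark.

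Its uncovered part fell in a gap of 1492 bp between H3K27me3 peaks, at 9800046 to 9801537, of which H3K4me3 covered 94.5% and H3K4me1 92.3%. A gap of the same kind lay inside the widest Tfap2c peak, at 172374700 to 172376836, with 2137 bp that H3K4me3 covered by 100% and H3K4me1 by 88.9%. H3K27ac covered 0 of either gap. No other gap of 1 kb or more lay inside the joined H3K27me3 domains of the windows. Over the genome, all joined H3K27me3 domains, with or without H3K4me3, held 3071 gaps of that length. Of these, 612 (19.9%) were covered by H3K4me3 over at least 50% of their length. The Gata3 and Tfap2c gaps were chosen for description after their values were seen, so no more than their position is given.

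H3K4me1 around Gata3 had its widest peaks at 9817478 to 9820995 (3518 bp, score 495.81), 9804128 to 9807528 (3401 bp, score 236.57) and 9797960 to 9801342 (3383 bp, score 415.76), all on H3K4me3 and H3K27me3. Away from the domain, the H3K4me1 peaks at 9777245 to 9778544 (score 152.78) and 9782078 to 9783556 (score 156.13) lay 17.302 and 12.29 kb from H3K4me3. The first of them held the sole H3K27ac peak of the window, at 9777924 to 9778354, with 431 bp and a score of 60.55. This was a weak peak, as 87.8% of the H3K27ac list scored at least as high and 92.2% was at least as wide.

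Tfap2c differed from Cdx2 and Gata3 in the balance of the marks. Its widest H3K4me3 peak, at 172372451 to 172377551, measured 5101 bp, and 54 of the 28941 H3K4me3 peaks (0.187%), itself included, were at least as wide. Its score was 3100, a level at which many scores of the list stop, and 25.4% of the list scored at least as high. Among the 54 widest, 7 (13%) overlapped H3K27me3 and not H3K27ac, and among the 7359 scoring at least as high, 499 (6.78%) did. H3K27me3 covered 48.4% of the Tfap2c peak, against 100% of the widest peak at Cdx2 and at Gata3. It covered 34.2% of the next widest at Gata3, which has the gap of the same kind. H3K4me3 peaks were not joined. Around Gata3, closely spaced H3K4me3 peaks from 9798158 to 9805610, a stretch longer than the Tfap2c peak, were listed separately. The width of a single peak thus depends on where the list splits peaks.

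The other 3 H3K4me3 peaks around Tfap2c were minor, at 172371227 to 172371768 (542 bp, score 136.13), 172371995 to 172372270 (276 bp, score 50.8) and 172378899 to 172379133 (235 bp, score 50.8). All 3 lay wholly under H3K27me3. The H3K27me3 peaks were modest, with the widest at 172371015 to 172372763 (1749 bp, score 569.72), 172377950 to 172379518 (1569 bp, score 248.82) and 172373294 to 172374699 (1406 bp, score 421.64). Of the H3K27me3 list, 6.68% scored at least as high as the first. The share was 0.401% for the widest Cdx2 peak and 0.0236% for the widest Gata3 peak. The Cdx2 and Gata3 scores are both 3100 or more, so their order is not read as a difference in strength. The 8 peaks joined into a domain of 11.18 kb that ranked 313 of 7561. The flank on either side of the wide H3K4me3 peak was therefore Polycomb-marked, and its middle was not.

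**Figure D4:**
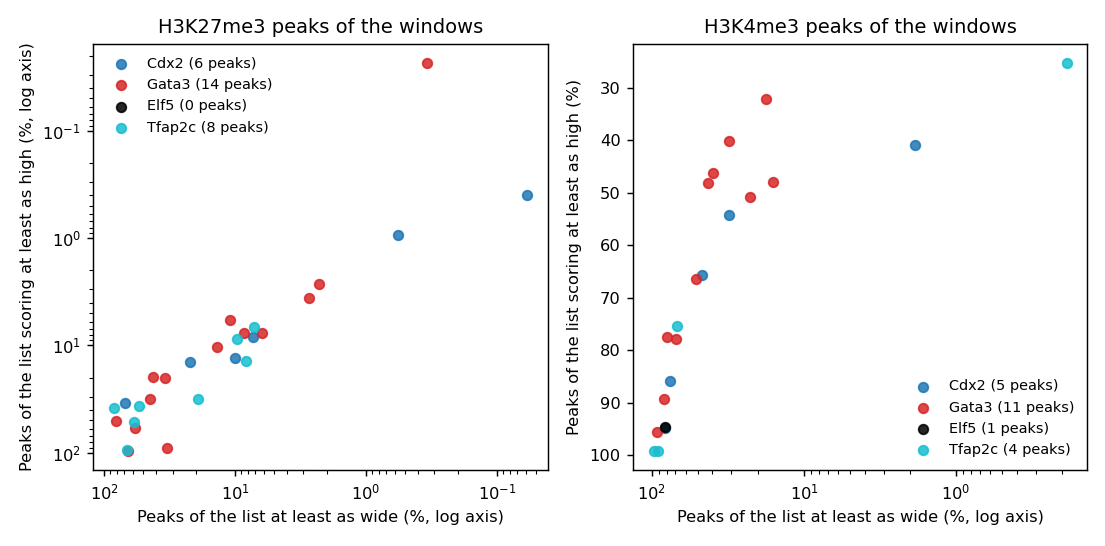
Each point is a peak of the windows, placed by the percent of its list that is at least as wide (x axis, log, wider to the right) and that scores at least as high (y axis, higher scores at the top, log for H3K27me3). For H3K27me3 the widest Cdx2 peak is at 0.0589% and the widest Gata3 peak at 0.342%, while for H3K4me3 the wide Tfap2c peak is at 0.187% and the Elf5 peak scores near the bottom of its list, at 94.5%.

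H3K4me1 around Tfap2c was widest at 172376096 to 172379592 (3497 bp, score 434.15) and 172369181 to 172372195 (3015 bp, score 289.02), on and beside the H3K4me3 peaks. The third in width, at 172401132 to 172403647 (2516 bp, score 238.12), was 21.998 kb from H3K4me3. It carried both H3K27ac peaks of the window, at 172401734 to 172403109 (1376 bp, score 481.61) and 172403197 to 172403950 (754 bp, score 157.61), of which the first scored in the upper 26.2% of its list. All 3 H3K27ac peaks of the windows lay on H3K4me1, as did 77.8% of the list. The first Tfap2c peak was the strongest H3K27ac in the 4 windows, and no H3K27me3 peak lay within 20 kb of it.

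Over the 4 windows, 9 H3K4me1 peaks had no H3K4me3 peak within 1 kb and count as distal. Of these, 2 overlapped H3K27ac, the ones at Gata3 and Tfap2c just described, against 18.7% of all distal H3K4me1 peaks. Another 2, both inside the Cdx2 domain, overlapped H3K27me3, against 0.897% of all distal peaks. They were narrow, with 940 bp and 891 bp, and scored 76.85 and 65.07. The other 5 carried neither mark, 3 of them around Tfap2c and 1 each around Gata3 and Elf5.

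Elf5 had the fewest peaks of the windows although its window was the longest. The H3K4me3 peak, at 103280010 to 103280368, had 359 bp and a score of 56.02, and 94.5% of the H3K4me3 list scored at least as high. The H3K4me1 peak, at 103275678 to 103277031, had 1354 bp and a score of 81.29, and 73.2% of its list scored at least as high. The 2 peaks did not overlap and were 2.978 kb apart. From the H3K4me3 peak, the nearest H3K27me3 peak was 125.295 kb away and the nearest H3K27ac peak 39.186 kb. Elf5 was therefore the window in which neither the active nor the Polycomb mark of H3K27 was listed, at a library depth that is unknown.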

How the data were processed

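The authors deposited 1 list of peaks for each of 4 libraries, with mm9 positions and a score for every peak, and these were used as they stand. Bowtie 0.12.9, MACS 1.4 and Cufflinks are named in the submitters' processing notes, with no role or order. Which control, duplicate filter and threshold were used for calling is not given in the sources used here. Depth and antibody both affect the number and width of peaks, so scores and widths were ranked within a list and not between lists.

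Groups follow the antibody in the labels. The 4 genes, their windows and the measures were chosen with earlier results of these data known. Cover was counted in bases within a window, overlap as at least 1 bp, and distal H3K4me1 as more than 1 kb from H3K4me3. H3K27me3 peaks were joined within 5 kb, and peaks of the other marks were not joined. Tiles of the window's length ran from the first base of each chromosome to its last peak, and those with H3K4me3 served as a description. Named peaks are all of a mark in a window up to 5, otherwise the 3 widest, and the 3 widest of H3K4me1. Peaks named beyond these were chosen after their values were seen. Further trophoblast genes and the markers of epiblast and feeder cells need gene positions on mm9, so they were not analysed here. Promoter bases came from RefSeq (GRCm38.p6). Alternatives were a score filter, wider windows, whole peaks, other overlaps and other distances. Overlap was checked by direct comparison on sampled H3K4me3 peaks of these lists and on simulated neighbours. Distance was checked only for peaks that overlap, and joining on simulated intervals. Python 3.11.15, numpy 2.4.6, pandas 2.3.3 and matplotlib 3.10.9 were used.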

Additional observations from a re-analysis of the deposited data

How the results depend on the processing

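Of 72 values recomputed under another setting, 55 stayed within 1.5 times the reported one, among them all 12 for H3K27me3 cover. Values of 0 that stayed at 0 are counted among them, as for H3K27me3 around Elf5 in every setting. The whole-peak setting could change only H3K27me3 and H3K4me1 cover around Gata3, since no other peaks crossed a window edge. Its other values stayed the same by construction and are counted too. Cdx2 H3K27me3 cover went from 23.83 to 35.65 kb with wider windows, which took in peaks before the window. When peaks under their list's median score were left out, H3K4me3 covered 3.36 kb around Cdx2, 7.72 kb around Gata3 and 0 kb around Elf5. H3K27ac then covered 0 kb around Gata3 and 1.38 kb around Tfap2c, and H3K4me1 0 kb around Elf5. Under that filter 7 H3K4me3 peaks were bivalent, 0 had neither H3K27 mark, and 1 distal H3K4me1 peak carried H3K27ac. Fewer peaks entered, by construction. With windows widened by 20 kb on each side, which take in neighbouring regions, Elf5 had 3.17 kb of H3K27ac, 2.32 kb of H3K4me3 and 6.12 kb of H3K4me1. Tfap2c then had 4.62 kb of H3K27ac and 28.84 kb of H3K4me1. Over the 4 widened windows together, 2 H3K4me3 peaks had H3K27ac alone, and 21 distal H3K4me1 peaks were counted. With overlap of at least 50% of the shorter peak, 2 H3K4me3 peaks had neither mark, the Elf5 peak and the Gata3 peak at 9799397 to 9801293, of which H3K27me3 covers 34.2%. No paired analysis was possible because each mark had 1 library. Unknown depth limits what the lack of a peak can show.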

Other observations

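Peaks within 20 kb outside the windows differed between the genes. Before the Cdx2 window, a further H3K27me3 peak at 148083495 to 148090542 of chromosome 5 (mm9) had 7048 bp and a score of 2497.08, and 0.518% of the list was at least as wide. It lay 9.46 kb from the window together with 3 other H3K27me3 and 4 H3K4me3 peaks and 0 H3K27ac peaks, and in RefSeq gene order the protein-coding gene before Cdx2 is Pdx1, a homeodomain factor of the pancreas. The peaks were not assigned to that gene, since gene positions on mm9 were not used here.

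Before the Tfap2c window, the H3K27ac peak at 172341006 to 172343500 of chromosome 2 had 2495 bp and a score of 867.9, higher than both H3K27ac peaks inside the window, and it was 6.5 kb from the window. After the Elf5 window, an H3K4me3 peak at 103324087 to 103326043 had 1957 bp and a score of 3233.06, which 0.0276% of the list reached. A score of 3100 or more was reached by 25.4% of the list, and ranks within that part are not read as an order of strength. Within 20 kb of the window end lay 4 H3K27ac peaks. The protein-coding gene after Elf5 in RefSeq order is Cat, which encodes catalase, and here too no assignment was made. Around Gata3, 3 H3K4me1 peaks and 0 peaks of the other marks lay within 20 kb.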
